A study of Homo sapiens with 12 samples.

Results

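The 8 liver transcription factor genes HNF4A, FOXA1, FOXA2, FOXA3, CEBPA, CEBPB, NR1H4 and PROX1 were followed in untreated and treated HepG2 and Ls174 cells. They were picked by gene name from the 57736 genes counted, with earlier results of these data known and by a rule that sets no threshold on a value, and the counts of all regions listed under a gene's name were summed. HepG2 is a line from a liver cancer and Ls174 a line from a colon cancer, and both are labelled wild type. Each line was grown in DMEM with 10% FBS and either left untreated or given 0.7 mg/ml of an extract of the red alga Hypnea musciformis (HME; the dose is that of the labels, and the methods give a slightly different one), and RNA was taken at 24 h from 3 cultures a group, in 4 groups and 12 libraries. Each tissue was represented by 1 tumour line, so a difference between HepG2 and Ls174 is a difference between these lines and cannot be told apart from one that arose in either tumour or in culture.

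Liver identity is held by a network of transcription factors that bind each other's promoters and the genes of secreted plasma proteins. FOXA proteins open chromatin early in liver and gut development, HNF4A is a nuclear receptor that keeps hepatocyte genes active, CEBPA and CEBPB are leucine zipper factors of metabolic and acute phase genes, NR1H4 (FXR) is the bile acid receptor, and PROX1 is a homeobox factor of the early liver bud. HNF4A, the FOXA factors and PROX1 also have known roles in gut epithelium or its tumours, whereas CEBPB is induced by cytokines and stress in many cell types.

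In HepG2 cells CEBPA fell 5.01-fold with HME, a call near its threshold that was lost without some single libraries. CEBPB, its close relative, stood 3.23-fold higher without reaching an adjusted p under 0.05. The other 6 factors, HNF4A and the 3 FOXA genes among them, gave no call in HepG2, and none of the 7 that could be tested was called in Ls174. Of all genes tested, 3.31% were called in HepG2 and 1.18% in Ls174. Before treatment 5 of the 8 factors were higher in HepG2 than in Ls174, beside 23.5% of all genes called. These included NR1H4, which had no count at all in Ls174, while FOXA1, CEBPB and PROX1 did not separate the lines.

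Reads in these libraries start near the 3′ end of a transcript, so a count stands for a transcript end and not for gene length. The 8 genes had 31 counted regions, of which 21 held counts, and 1 terminal region carried most of each gene's counts. The genes are ENSG00000101076 (HNF4A), ENSG00000129514 (FOXA1), ENSG00000125798 (FOXA2), ENSG00000170608 (FOXA3), ENSG00000245848 (CEBPA), ENSG00000172216 (CEBPB), ENSG00000012504 (NR1H4) and ENSG00000117707 (PROX1), each listed under 1 identifier. On GRCh37 this was chr20:43058163-43061682 for HNF4A (plus strand), chr14:38058992-38060569 for FOXA1 (minus), chr20:22561446-22562487 for FOXA2 (minus), chr19:46376317-46377252 for FOXA3 (plus), chr19:33790840-33792243 for CEBPA (minus), chr20:48808609-48809212 for CEBPB (plus), chr12:100957029-100958388 for NR1H4 (plus) and chr1:214209178-214214792 for PROX1 (plus). The CEBPA, CEBPB, FOXA1, FOXA2, FOXA3 and PROX1 regions held no coding bases of their gene and lay in its 3′ untranslated end, in part reaching past the annotated end, and those of HNF4A and NR1H4 also held the last coding bases.

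The motif AATAAA, the signal that directs cleavage and polyadenylation, was looked for on the transcribed strand, together with its variant ATTAAA, in the last 457 bases of each of these regions, because the counts depend on where transcripts end. Among the 22097 counted regions of at least that length, 64.6% held AATAAA and 77.6% held either motif. HNF4A, FOXA1, FOXA2, CEBPB, NR1H4 and PROX1 held AATAAA, FOXA3 held only ATTAAA, and CEBPA held neither. HNF4A also held AATAAA in a second, inner terminal region, chr20:43053020-43053476, whose counts are described further on. For CEBPA the motif stood in the neighbouring region of the pseudogene AC008738.1, chr19:33790656-33790852 on the same strand, which overlaps the CEBPA region by 13 bases. The stretches that bear on the counts are shown 5′ to 3′ with the motif in capitals, for both HNF4A ends, for the CEBPA neighbour and for CEBPB:
HNF4A inner end, chr20:43053250-43053279, plus strand: ttatgattttgaAATAAAcaggtaatatga
HNF4A last end, chr20:43061449-43061478, plus strand: tttataaaacaaAATAAAtggcgcatatgt
AC008738.1, chr19:33790656-33790675, minus strand: ccaggcaagacaAATAAAta
CEBPB, chr20:48809168-48809197, plus strand: aagaacacttttAATAAActtttttttgag
Both HNF4A ends thus carried the full motif.

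The counts of CEBPA and AC008738.1 were nearly the same. CEBPA had 622, 513 and 282 counts in the HepG2 controls and 53, 149 and 79 after HME, and AC008738.1 had 569, 499 and 260 and then 47, 132 and 74. Over the 12 libraries the pseudogene had 83.7% to 100% of the CEBPA count. Reads of CEBPA and of this overlapping pseudogene cannot be told apart in these counts, so CEBPA values are uncertain in that respect. The antisense gene CTD-2540B15.11, which overlaps the CEBPA region by 169 bases, had 0 counts in all 12 libraries.

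Promoters from RefSeq (GRCh38.p14, 250 bases before to 50 after a start) were matched by symbol for 6 of the 8 genes, with 8 promoters in all. The 6 short motifs were searched on both strands, N standing for any base: TATAAA (the TATA box), TGTTTNC (forkhead), TTGCNNAA (C/EBP), GTTAAT (a half-site of HNF1), CAAAGTNCA (HNF4) and TGACG (a half-site of the cyclic AMP response element). TATAAA was in 3 of the 8 promoters (FOXA3, CEBPA and CEBPB) and in 11.5% of all 35116 promoters of this length. GTTAAT was in 2 of the 8 (HNF4A and NR1H4) and in 6.88% of all, TGTTTNC in 1 (FOXA1) and in 18% of all, and TGACG in 1 (CEBPB) and in 24.6% of all. TTGCNNAA and CAAAGTNCA matched 0 of the 8, against 10.5% and 1.1% of all promoters, and no match overlapped another. The promoters of the 2 C/EBP genes, whose counts moved in opposite directions in HepG2, and those of HNF4A and NR1H4, which were higher in HepG2 than in Ls174, are shown with every match in capitals:
CEBPA, chr19:33302485-33302784, minus strand: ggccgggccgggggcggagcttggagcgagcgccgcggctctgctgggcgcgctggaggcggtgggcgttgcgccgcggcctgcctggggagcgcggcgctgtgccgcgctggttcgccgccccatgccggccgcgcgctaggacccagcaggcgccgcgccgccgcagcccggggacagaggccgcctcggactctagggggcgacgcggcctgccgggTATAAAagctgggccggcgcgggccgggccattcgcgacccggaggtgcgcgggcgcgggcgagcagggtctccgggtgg
CEBPB, chr20:50190580-50190879, plus strand: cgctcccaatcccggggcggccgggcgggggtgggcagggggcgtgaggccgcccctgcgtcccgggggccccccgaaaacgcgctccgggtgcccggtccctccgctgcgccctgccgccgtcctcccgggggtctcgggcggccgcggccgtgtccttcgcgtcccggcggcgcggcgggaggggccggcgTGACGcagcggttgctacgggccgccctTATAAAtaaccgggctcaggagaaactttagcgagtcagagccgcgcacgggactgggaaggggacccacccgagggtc
HNF4A, chr20:44400989-44401288, plus strand: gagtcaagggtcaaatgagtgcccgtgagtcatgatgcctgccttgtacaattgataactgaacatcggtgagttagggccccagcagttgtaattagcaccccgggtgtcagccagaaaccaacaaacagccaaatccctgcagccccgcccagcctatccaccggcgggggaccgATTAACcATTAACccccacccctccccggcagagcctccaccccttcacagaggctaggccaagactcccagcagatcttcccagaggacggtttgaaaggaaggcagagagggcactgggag
NR1H4, chr12:100503110-100503409, plus strand: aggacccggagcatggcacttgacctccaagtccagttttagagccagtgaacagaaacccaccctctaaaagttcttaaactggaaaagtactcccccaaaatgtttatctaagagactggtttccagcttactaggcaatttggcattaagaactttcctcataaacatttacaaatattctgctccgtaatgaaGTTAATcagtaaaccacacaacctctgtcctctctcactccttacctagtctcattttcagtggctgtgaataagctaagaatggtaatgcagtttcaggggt
The CEBPA and CEBPB promoters shown carried TATAAA 30 and 29 bases before the start, and CEBPB had TGACG 57 bases before it. The HNF4A promoter shown held GTTAAT, read on the other strand, 73 and 66 bases before the start, and NR1H4 held it 53 bases before. HNF4A and CEBPB each had another promoter, not shown, that held none of the motifs searched. These matches are descriptions of the letters in these windows.

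The libraries held 1790841 to 3656662 counts. Replicates differed by more than sampling noise in every pair (chi-square per degree of freedom 4.44 to 54.1), and 2 control libraries stood apart: HepG2 control 2, at 49.1 and 54.1 against its replicates where these differed by 13.6, and Ls174 control 1, at 34.5 and 37 where the other two differed by 5.68. Summed levels of 10 hepatocyte markers were 25315 to 28967 CPM (counts scaled to a common library size, with TMM factors throughout) in HepG2 controls, 17351 to 19911 after HME and at most 148 in Ls174. The 10 colon epithelium markers summed to 70.7 to 224 CPM in untreated HepG2 and 394 to 517 CPM in untreated Ls174, where KRT20 was at 0 and MUC2, the goblet cell mucin, reached at most 2.15 CPM. Most of the HepG2 sum was VIL1, at 51.3 to 189 CPM there and 40.9 to 78.5 CPM in untreated Ls174. PTPRC, a marker of white blood cells, was at 0 in all 12 libraries. The 10 blood cell markers summed to at most 575 CPM in HepG2, most of it LYZ, and to at most 4.92 CPM in Ls174. The 10 mesenchymal markers summed to 97.1 to 170 CPM in HepG2 controls and 106 to 1062 CPM after HME, the top value coming from COL1A1 and COL1A2 in HME 2, and to at most 14.6 CPM in Ls174. The 9 endothelial markers stayed at or under 9.23 CPM in every library. Fewer cells with a transcript and less of it per cell cannot be told apart in these bulk samples.

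HNF4A was the highest of the 8 in untreated HepG2, at 205 CPM ± 108 (SD, n = 3), above 96.3% of genes with a count there. It was followed by CEBPA at 198 ± 100 CPM, FOXA3 at 139 ± 116, FOXA2 at 88.8 ± 15.2, PROX1 at 82.4 ± 34.7, FOXA1 at 37.5 ± 20.7, NR1H4 at 25.7 ± 14.3 and CEBPB at 11.1 ± 5.34. The ranges of each pair of neighbours in this order overlapped, so only the upper and lower parts of the order are apart. In untreated Ls174 the order began with PROX1 at 66.1 ± 24.1 CPM, then FOXA1 at 47.4 ± 14.9, HNF4A at 44.6 ± 19.4, FOXA2 at 36.2 ± 9.59, CEBPA at 20.9 ± 14, CEBPB at 12.7 ± 8.8, FOXA3 at 11.5 ± 4.95 and NR1H4 at 0. Here too neighbours overlapped down to FOXA3. Both lines thus held mRNA of 7 of the factors.

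**Figure D1:**
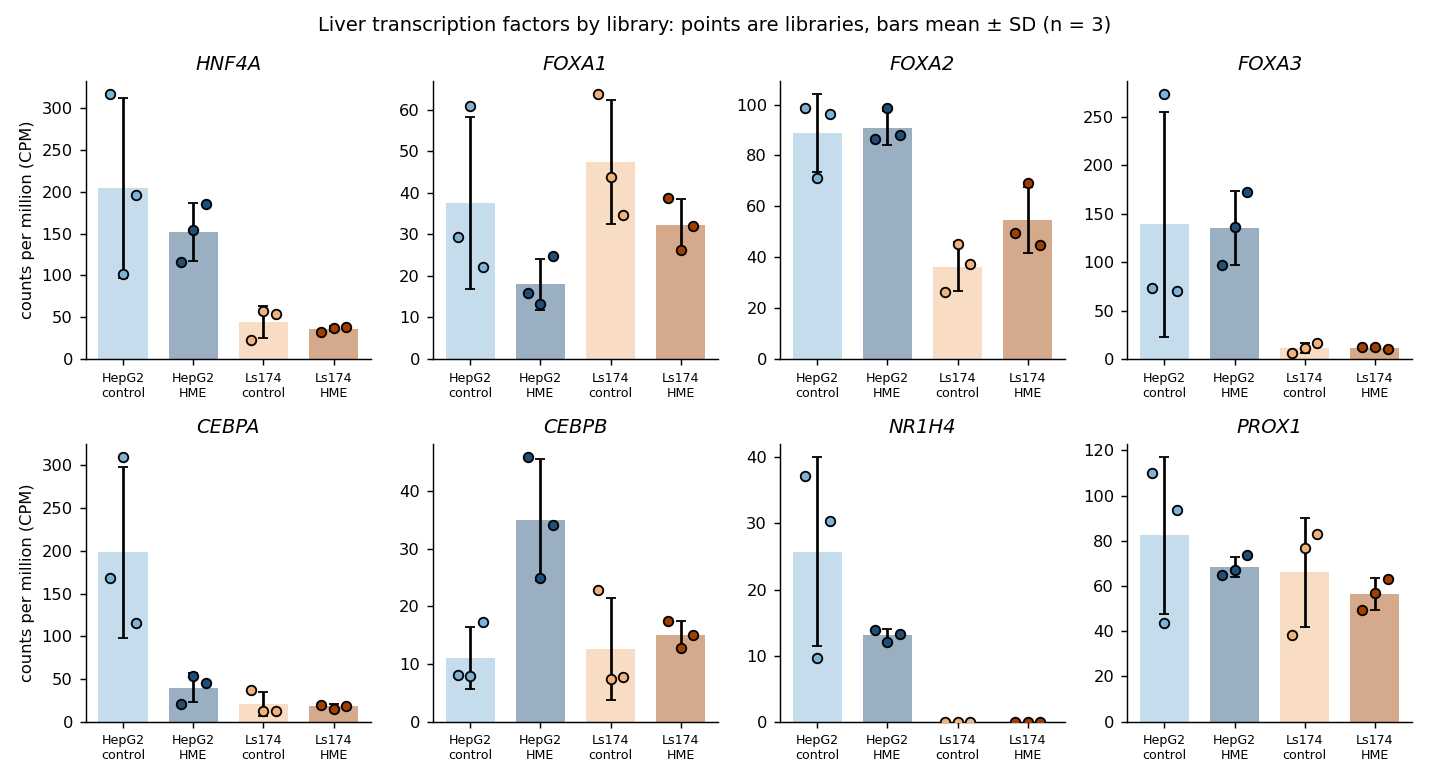
Level of each of the 8 factors (vertical axis, CPM) in the 4 groups. Points are the 12 libraries, bars the mean and whiskers the SD of 3. The CEBPA points after HME in HepG2 lie at 53 CPM or below, under every HepG2 control, and NR1H4 is at 0 in all Ls174 libraries.

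The first comparison asked how far the untreated lines differ in these factors. HNF4A read 316.5, 101.5 and 195.7 CPM in HepG2 controls and 22.34, 57.85 and 53.56 in Ls174 controls. It was 4.59-fold higher in HepG2 (log2 fold change 2.20 ± 0.5 SE, adjusted p = 0.0114, edgeR), and the groups did not overlap. FOXA3, the FOXA member most tied to mature liver, read 73.23, 273.6 and 70.58 CPM in HepG2 and 6.656, 11.39 and 16.56 in Ls174. That is 12.5-fold higher (log2 3.64 ± 0.676, adjusted p = 0.00388), with HepG2 control 2 far above the other two, and 2.61 on the log2 scale without that library. FOXA2, which acts in both liver and gut endoderm, was 98.72, 71.26 and 96.43 CPM against 26.15, 45.24 and 37.26, 2.48-fold higher (log2 1.31 ± 0.33, adjusted p = 0.0191). FOXA2 was past the threshold by little: it ended at an adjusted p of 0.0596 without HepG2 control 1, 0.0592 without HepG2 control 3, 0.0789 without Ls174 control 3 and 0.0602 with scaling by library size only.

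CEBPA, the factor of resting, differentiated hepatocytes, read 168.7, 309.8 and 115.7 CPM in untreated HepG2 and 37.08, 12.92 and 12.68 in untreated Ls174. It was 9.86-fold higher in HepG2 (log2 3.30 ± 0.606, adjusted p = 0.00368). NR1H4 had 137, 16 and 74 counts in HepG2 controls, or 37.16, 9.662 and 30.36 CPM, and none in any of the 6 Ls174 libraries. Against the level that 3 counts would give in the shallowest Ls174 control (1.43 CPM), NR1H4 was at least 18-fold higher in HepG2 (adjusted p = 0.0011). NR1H4 passed the filter on low counts through HepG2 alone. Even its lowest HepG2 library, control 2, was at least 6.77-fold above that floor.

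The other 3 factors did not pass the test, and their intervals were wide. FOXA1, a partner of steroid receptors as well as a liver factor, was 29.29, 60.99 and 22.16 CPM in HepG2 and 63.71, 43.7 and 34.67 in Ls174 (log2 fold change -0.30, 95% interval -1.38 to 0.78). PROX1 was 110.1, 43.48 and 93.56 against 38.51, 76.93 and 82.8 CPM (log2 0.33, -0.63 to 1.28). CEBPB was 8.136, 7.851 and 17.23 against 22.82, 7.385 and 7.762 CPM (log2 -0.17, -1.51 to 1.18), and its sign turned to 0.71 without the 2 control libraries that stand apart. In all, 5 of 8 factors were called, each higher in HepG2, beside 23.5% of the 11907 genes tested, and the same 5 passed the looser rule of p under 0.05 with a log2 change past 0.58, beside 35.0% of genes. The median log2 fold change was 1.75 over the 8 and 0.04 over all genes. Taking the replicate number as a block left 3 of the 5 (FOXA3, CEBPA and NR1H4), with HNF4A at an adjusted p of 0.0516.

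In HepG2 the comparison of HME with control tested the effect of the extract on a line that expresses all 8. CEBPA read 168.7, 309.8 and 115.7 CPM in controls and 20.98, 53.05 and 45.75 after HME. All 3 treated libraries lay below all 3 controls, and the mean went from 198 ± 100 to 39.9 ± 16.8 CPM. This was a log2 fold change of -2.33 ± 0.509 (95% interval -3.46 to -1.19, adjusted p = 0.04, edgeR). CEBPA thus moved from the second to the fifth highest of the 8, and from above 96.2% to above 81.2% of genes with a count. The call was near its threshold: the adjusted p was 0.0621 without control 1, 0.155 without HME 1, 0.106 without HME 2 and 0.147 without HME 3, with log2 fold changes from -2.62 to -1.73 over all single libraries left out. Without HepG2 control 2, the library with the highest CEBPA level, the fold change was -1.73 on the log2 scale with an adjusted p of 0.0235.

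CEBPB read 8.136, 7.851 and 17.23 CPM in HepG2 controls and 45.91, 24.92 and 34.16 after HME. Every treated library was above every control, and the mean went from 11.1 ± 5.34 to 35 ± 10.5 CPM. The log2 fold change was 1.69 ± 0.414 (95% interval 0.77 to 2.62), but the adjusted p was 0.0588 in edgeR. It was 0.0139 in DESeq2, 0.0494 in 1 fit of all 12 libraries and 0.0424 without HepG2 control 2, and ran from 0.00363 to 0.191 over all alternatives. CEBPA was the higher of the pair in every HepG2 control and in HME 2 and 3, and CEBPB the higher in HME 1. CEBPB went from the lowest of the 8 to the sixth highest.

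The pioneer factors and HNF4A gave no call in HepG2. FOXA1 was 29.29, 60.99 and 22.16 CPM in controls and 15.83, 13.17 and 24.9 after HME, a log2 fold change of -1.07 (95% interval -2.15 to 0.01, adjusted p = 0.231). Without control 2, the highest of the 6 libraries, it was -0.45 with an adjusted p of 0.465. FOXA2 was 98.72, 71.26 and 96.43 and then 86.28, 98.62 and 88.02 CPM, with a log2 fold change of 0.06 and the narrowest interval of the 8, -0.57 to 0.70. Its sign turned to -0.10 with scaling by library size only. FOXA3 was 73.23, 273.6 and 70.58 and then 97.37, 136 and 173.1 CPM. Its log2 fold change of -0.07 (-1.35 to 1.21) rested on control 2, without which it was 1.02 with an adjusted p of 0.0655. HNF4A was 316.5, 101.5 and 195.7 and then 115.6, 154.2 and 185.9 CPM, with overlapping groups and a log2 fold change of -0.38 (-1.29 to 0.53), or 0.06 without control 1.

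NR1H4 was 37.16, 9.662 and 30.36 CPM in HepG2 controls and 13.85, 12.11 and 13.32 after HME. The treated libraries were close together and lay between control 2 and the other two controls (log2 fold change -0.94, 95% interval -1.93 to 0.05, adjusted p = 0.246). Without control 2 the log2 fold change was -1.27 with an adjusted p of 0.0245. PROX1 was 110.1, 43.48 and 93.56 and then 64.91, 66.93 and 73.54 CPM (log2 -0.22, -1.01 to 0.56), again between control 2 and its replicates. HepG2 control 2 was the lowest control for HNF4A, FOXA2, CEBPB, NR1H4 and PROX1 and the highest for FOXA1, FOXA3 and CEBPA. Its part in these spreads was not tested beyond leaving it out.

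By an adjusted p under 0.05, 1 of the 8 factors was called in HepG2, beside 3.31% of the 11343 genes tested. By the looser rule, the thresholds the study used, 2 of 8 were called (CEBPA lower and CEBPB higher), beside 22.2% of genes. The median log2 fold change of the 8 was -0.30 and that of all genes -0.04. Leaving out HepG2 control 2 raised the first count to 3, with CEBPA, CEBPB and NR1H4.

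**Figure D2:**
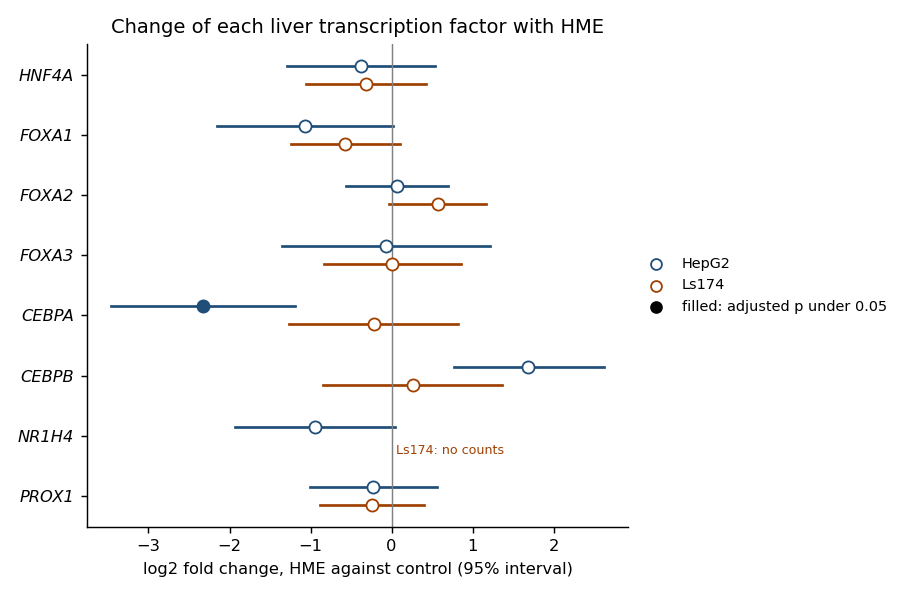
Log2 fold change of HME against control for each factor (horizontal axis) with its 95% interval, in HepG2 (blue) and Ls174 (brown). Filled points have an adjusted p under 0.05. CEBPA in HepG2, at -2.33, is the single filled point, and NR1H4 has no Ls174 point because it had no counts there.

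In Ls174, 7 of the 8 factors could be tested and 0 were called by either rule, beside 1.18% (adjusted p under 0.05) and 12% (p and fold) of the 11319 genes. At an unadjusted p under 0.05 the count was also 0, and DESeq2 called 0. The lowest p-values belonged to FOXA2 and FOXA1. FOXA2 was 26.15, 45.24 and 37.26 CPM in controls and 49.63, 69.31 and 44.71 after HME (log2 fold change 0.57, 95% interval -0.03 to 1.17, adjusted p = 0.391). FOXA1 was 63.71, 43.7 and 34.67 and then 38.69, 26.3 and 31.99 CPM (log2 -0.57, -1.24 to 0.10, adjusted p = 0.436). In both genes the groups overlapped by a single pair of libraries.

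CEBPA in Ls174 was 37.08, 12.92 and 12.68 CPM in controls and 20.07, 15.28 and 18.6 after HME (log2 fold change -0.22, 95% interval -1.27 to 0.82). CEBPB was 22.82, 7.385 and 7.762 and then 17.52, 12.8 and 15.01 CPM (log2 0.26, -0.84 to 1.36). For both genes Ls174 control 1 was the highest of the 6 libraries. Without it, CEBPA stood at 0.50 (adjusted p = 0.251) and CEBPB at 1 with an adjusted p of 0.0462. HNF4A was 22.34, 57.85 and 53.56 and then 32.48, 37.68 and 38.51 CPM (log2 -0.32, -1.06 to 0.42), and without control 1, its lowest library, -0.61 with an adjusted p of 0.0402. FOXA3 (log2 0.01, -0.84 to 0.86) and PROX1 (log2 -0.24, -0.88 to 0.40) had overlapping groups, and NR1H4 stayed at 0 in the 3 treated libraries, where 3 counts would be at most 1.09 CPM. The median log2 fold change of the 7 was -0.22, beside -0.0029 for all genes.

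Whether HME acted differently on a factor in the 2 lines was tested by the interaction over all 12 libraries. CEBPA had the largest difference, its log2 fold change being lower in HepG2 by 2.10 (interaction -2.10 ± 0.69, 95% interval -3.57 to -0.62, adjusted p = 0.204). CEBPB differed by 1.40 in the other direction (-0.01 to 2.81, adjusted p = 0.384). None of the others passed p under 0.05, and that of NR1H4 could not be estimated. So 0 of 8 were called, beside 0.644% of the 13040 genes, and 1 of 8 (CEBPA) by p and fold, beside 13.2% of genes. DESeq2 also called 0 at an adjusted p under 0.05. CEBPA passed at an adjusted p of 0.0464 without Ls174 control 1 and 0.0175 without both control libraries that stand apart. A different effect of HME on CEBPA in the 2 lines was therefore not shown at the adjusted threshold with all libraries.

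HNF4A was counted at 2 places that end its transcripts, and the share of the inner one differed between groups in HepG2. This comparison was chosen after the values had been seen. The inner end, chr20:43053020-43053476 on GRCh37, lies upstream of the last end and holds 26 coding and 400 untranslated bases of annotated HNF4A transcripts. In HepG2 controls it had 28 of 1165, 2 of 163 and 20 of 473 counts of both ends, or 2.4%, 1.23% and 4.23%. After HME it had 32 of 282, 32 of 429 and 27 of 316, or 11.3%, 7.46% and 8.54%. The exact binomial 95% intervals, which cover counting error only, reached at most 6.45% in the controls and began at 5.16% or above after HME.

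The mean share in HepG2 was 2.62% ± 1.51 in controls and 9.12% ± 2.01 after HME, a difference of 6.5 percentage points, and the groups did not overlap. A two-sided exact permutation test gave p = 0.1, the smallest that 3 libraries against 3 allow. The difference stayed between 5.38 and 7.33 points when any 1 library was left out. In Ls174 the shares were 0%, 3.72% and 1.94% in controls and 1.12%, 1.89% and 3.39% after HME, with a mean difference of 0.245 points (exact permutation p = 1). The 0% of Ls174 control 1 stands on 47 counts and allows up to 7.55%. The summed HNF4A level did not pass the test in either line, and the end share could not reach a p under 0.05 with 3 libraries a group. Neither value was thus shown to change.

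**Figure D3:**
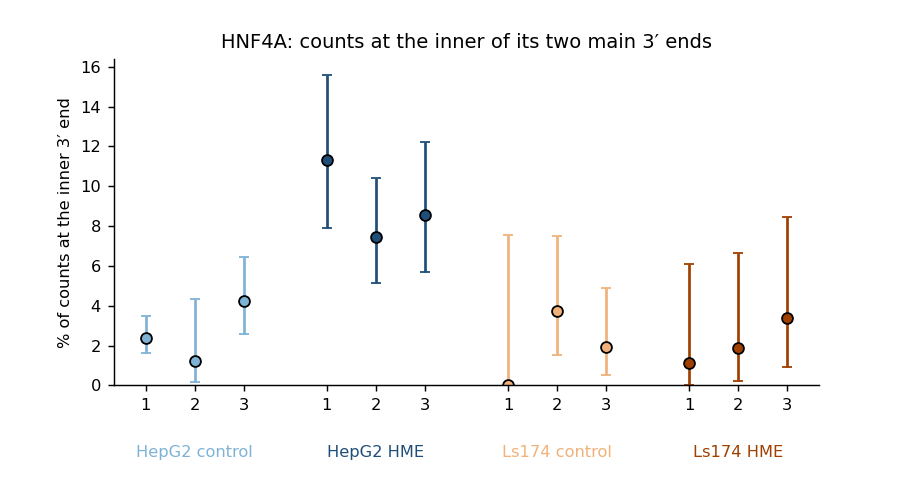
Share of HNF4A counts at the inner of its 2 terminal regions (vertical axis, percent of the counts of both) in each of the 12 libraries, with exact binomial 95% intervals. The HepG2 HME libraries, at 7.46% to 11.3%, lie above the HepG2 controls, at 1.23% to 4.23%, and the Ls174 libraries lie between 0% and 3.72%.

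NR1H4 also had a second counted region, chr12:100899353-100899799 on GRCh37, upstream of its last region. It held 9.85%, 0% and 13.5% of the counts of both regions in HepG2 controls and 11.4%, 20.6% and 30.4% after HME, on 16 to 132 counts a library. These shares overlapped between the groups and were not tested.

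Other regulators of the same network were taken from a list of 28 liver factors and cofactors, of which 22 were tested in HepG2. By an adjusted p under 0.05, 0 of the 22 were called with HME in edgeR, where 8 had an unadjusted p under 0.05, and DESeq2 called 2 (CREB3L3 and NR0B2). By p and fold in edgeR, 5 were higher and 3 lower, beside 22.2% of all genes, and the median log2 fold change was 0.27. CREB3L3, a liver factor of fasting and lipid genes, went from 14.2 to 38.6 CPM (log2 1.44, adjusted p = 0.0921 in edgeR and 0.0413 in DESeq2). NR0B2 (SHP), the corepressor that NR1H4 induces, had 53.4, 16.3 and 94.8 CPM in controls and 229, 140 and 136 after HME (log2 1.67, adjusted p = 0.109 in edgeR and 0.0261 in DESeq2). Without control 2 the NR0B2 value was 1.29 with an adjusted p of 0.0487, and without control 3 it was 2.28 with 0.0775. CEBPG, a C/EBP partner, went from 41.6 to 81.7 CPM (log2 0.98, adjusted p = 0.134, or 0.0309 without control 2 and 0.0445 in 1 fit of all 12 libraries). HHEX, a homeobox factor of the liver bud, went from 37.6 to 12.4 CPM (log2 -1.59, adjusted p = 0.11). In Ls174, 0 of 19 were called by adjusted p in edgeR and 2 had an unadjusted p under 0.05: CEBPD (log2 1.54, adjusted p = 0.183) and TBX3 (log2 -0.83, adjusted p = 0.217). DESeq2 called CEBPD (0.0488), and without Ls174 control 1 its edgeR value was 0.00696. With control 1 in, at 2.85 CPM, CEBPD passed the filter on low counts through the treated libraries alone. Between the untreated lines 23 of the 28 were tested, and 6 were called higher and 1 lower in HepG2, beside 23.5% of all genes called. HLF was at 233 CPM in HepG2 against 2.92 in Ls174, and HHEX at 37.6 against 1.59. GATA4 and NR1I2 were at least 9.61-fold and 5.30-fold higher. HLF, HHEX, GATA4 and NR1I2 all passed the filter on low counts through HepG2 alone.

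Of 16 intestinal transcription factors, 6 were tested in HepG2, and 2 rose with HME, beside 3.31% of all genes called. KLF5, a factor of gut crypt cells, had 1.63, 1.21 and 1.64 CPM in HepG2 controls and 52.6, 36.3 and 40 after HME, a 28-fold rise (log2 4.81 ± 0.405, adjusted p = 0.000676). It passed the filter on low counts through the treated libraries alone. In Ls174 KLF5 was at 55.1, 76 and 83.1 CPM in controls and 63.9, 58.6 and 51.2 after HME. The HepG2 HME libraries and this colon line were not compared by a test. TCF7L2, the Wnt effector, rose from 20.7 to 66 CPM (log2 1.70, adjusted p = 0.0328), a call that scaling by library size only ended (0.0674) and that was also lost without each library except control 2, at most to 0.121. ELF3, an epithelial ETS factor, went from 25.4 to 81 CPM (log2 1.68, adjusted p = 0.0774 in edgeR). ELF3 was called by DESeq2 (0.0124) and in 1 fit of all 12 libraries (0.0233), and without control 2 it was 2.39 on the log2 scale with an adjusted p of 0.00125. The other tested factors, SOX9, ISX and GFI1, gave log2 fold changes of -0.18, -0.37 and 0.12, and the remaining 10 of the list, CDX1 and CDX2 among them, did not pass the filter on low counts in HepG2. In Ls174, 0 of 11 intestinal factors were called by adjusted p in edgeR or DESeq2, and 1 had an unadjusted p under 0.05, CDX1 at a log2 fold change of -0.73 (adjusted p = 0.333). Between the untreated lines 8 of 12 tested were called lower in HepG2 and 0 higher, beside 23.5% of all genes called. KLF5, at a log2 difference of -5.50, was among those lower. Like ASCL2, CDX1 and VDR, also called lower, it passed the filter there through Ls174 alone.

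Genes listed as targets of the factors were counted in the same way. Whether a listed gene is driven by its factor in these cells was not tested. Of 15 targets of HNF4A and FOXA, 12 were tested in HepG2. Of these, 11 had a negative log2 fold change, with a median of -0.64 beside -0.04 for all genes. The share of all genes with a negative value is not given here. In edgeR 0 of the 12 were called by adjusted p and 3 had an unadjusted p under 0.05, and DESeq2 called 1, APOB. The 3, each lower by p and fold, beside 22.2% of all genes called by that rule, were APOB, the protein of very low density lipoprotein, from 2854 to 1100 CPM (log2 -1.37, adjusted p = 0.0604 in edgeR and 0.00146 in DESeq2), MTTP, which loads lipid onto it, from 55.6 to 27.3 CPM (log2 -0.999, adjusted p = 0.111), and APOA1 from 1826 to 797 CPM (log2 -1.22, adjusted p = 0.159). APOB also passed in edgeR with scaling by library size only (0.0441), the upper quartile (0.0495), no filter (0.0287) or without control 2 (0.0273), and stood at 0.473 in 1 fit of all 12 libraries, and MTTP passed without control 2 (0.0448). Without control 2, where APOA1 stood at 3018 CPM, APOA1 was at -0.53. ALB, the main plasma protein, had a log2 fold change of -0.18. Of 11 targets of NR1H4, 3 were tested with HME in HepG2. In edgeR 0 of them were called by adjusted p and 2 had an unadjusted p under 0.05, NR0B2 with the higher values above and KNG1, a kininogen, at a log2 fold change of -1.85 (adjusted p = 0.1). DESeq2 called NR0B2.

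Of 16 genes listed as targets of CEBPA and CEBPB, 10 were tested in HepG2 and 4 rose, beside 3.31% of all genes called. The other 6 had negative log2 fold changes and did not pass. Among the 4 is TRIB1, which acts on CEBPA itself, so the calls are no measure of C/EBP activity. CXCL8, a neutrophil chemokine, read 2.17, 3.02 and 6.57 CPM in controls and 78, 55.9 and 78.8 after HME (log2 4.22 ± 0.457, adjusted p = 0.00208). PCK1, an enzyme of gluconeogenesis, read 10.8, 3.62 and 11.1 and then 84.7, 146 and 168 CPM (log2 3.97 ± 0.467, adjusted p = 0.00251). CXCL8 and PCK1 passed the filter on low counts through the treated libraries alone. TRIB1, a pseudokinase known to send CEBPA protein for degradation, read 45, 41.1 and 52.5 and then 283, 256 and 237 CPM (log2 2.51 ± 0.298, adjusted p = 0.0026). TRIB3, a stress-induced relative, went from 152 to 388 CPM (log2 1.37, adjusted p = 0.0343), a call lost with scaling by library size only (0.0626), under the replicate block (0.0945) and without each library except control 2, at most to 0.16. The 6 that did not pass were the plasma proteins ALB, ORM1, ORM2 and HP, the receptor ASGR1 and the urea cycle enzyme CPS1. So the list split, and its median log2 fold change of -0.25 does not show the 4 calls. Between the untreated lines 12 of 12 tested HNF4A and FOXA targets were called higher in HepG2, beside 23.5% of all genes called. Of 4 NR1H4 targets tested 3 were higher and 1 lower, FABP6, at 0.274 CPM in HepG2 and 127 in Ls174. Of 9 C/EBP targets 5 were higher and 1 lower, PCK1, at 8.52 CPM in HepG2 and 151 in Ls174. Each called target passed the filter on low counts only through the line in which it was higher.

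In Ls174, 6 of the C/EBP targets were tested with HME and 1 rose, beside 1.18% of all genes called: CXCL8, from 1.55 to 12.4 CPM (log2 2.97, adjusted p = 0.0392). It passed the filter on low counts through the treated libraries alone. The call was lost under the replicate block (0.153) and without each library except control 1, at most to 0.274. TRIB3, PCK1 and TRIB1 were higher by p and fold (12% of all genes), at log2 fold changes of 1.12, 1.70 and 0.68. TRIB3 and PCK1 missed the adjusted threshold in edgeR (0.0876 and 0.125) but passed it in DESeq2 (0.00301 and 0.00351) and without Ls174 control 1 (8.35e-05 and 0.00228). In HepG2 cells treated with HME the summed hepatocyte markers were lower than in controls (17351 to 19911 against 25315 to 28967 CPM), with 9 of 10 markers negative. Their median log2 fold change was -0.41, beside -0.04 for all genes. In edgeR 0 were called by adjusted p and 2 had an unadjusted p under 0.05, and DESeq2 called APOB. Of these 10 markers 8 are also in the list of HNF4A and FOXA targets, so both describe largely the same genes. Their part in the values of the liver factors and targets was not tested.

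**Figure D4:**
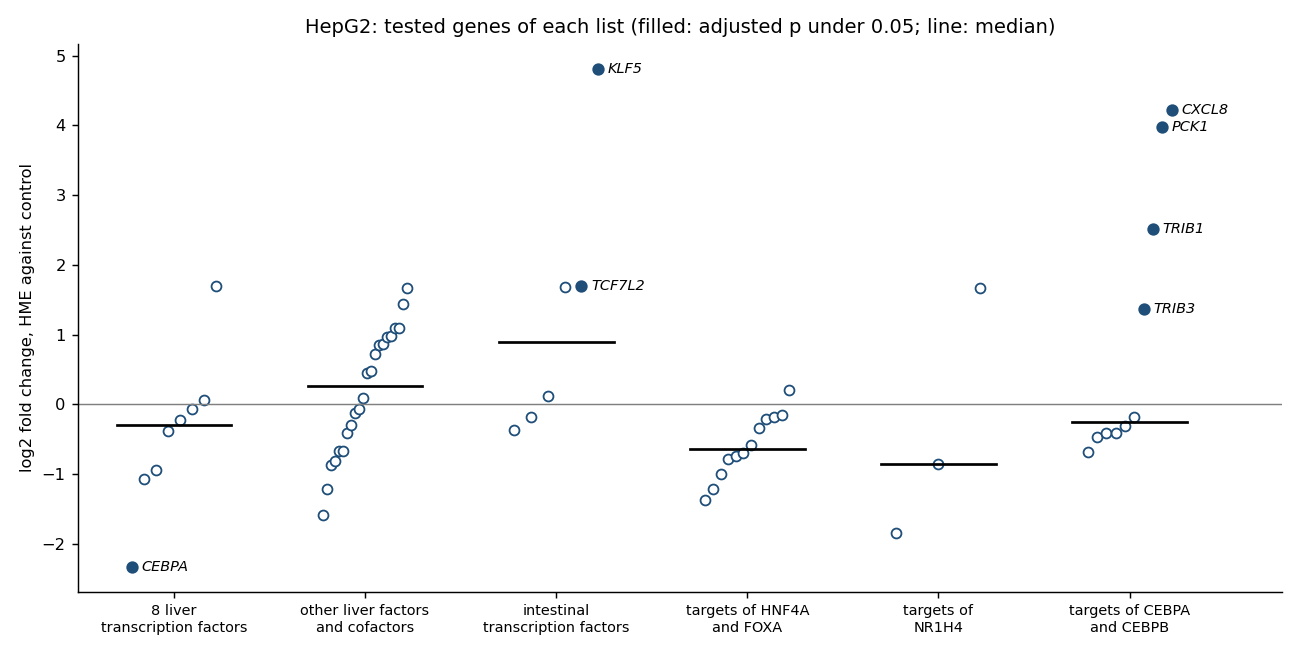
Log2 fold change of HME against control in HepG2 (vertical axis) for the tested genes of 6 lists. Each point is a gene, filled where the adjusted p was under 0.05, and the line is the list's median. The filled points are CEBPA at -2.33, KLF5 and TCF7L2 among intestinal factors, and CXCL8, PCK1, TRIB1 and TRIB3 among genes listed as targets of the C/EBP pair.

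For each factor the genes most like it over the 12 libraries were found by Pearson's r of log2 CPM (with 2 counts added) over 13039 other genes. These values describe these libraries, share their scaling and depth, and mostly follow the difference between the lines. HNF4A was most like HMGA2 (0.974), GAS2 (0.973) and GJB1 (0.968), FOXA2 most like FAM19A5 (0.981), APOM (0.966) and HKDC1 (0.959), and FOXA3 most like ABL2 (0.985), ARPC2 (0.979) and C1orf64 (0.979). NR1H4 was most like C6 (0.997), TRIB2 (0.996) and RGN (0.996). CEBPA was most like its overlapping neighbour AC008738.1 (0.999), then AC005329.7 (0.978) and MAGED1 (0.964). The 3 factors that did not separate the lines reached lower values in part: FOXA1 with LRFN3 (0.961), RNF208 (0.954) and INTS1 (0.953), PROX1 with ORC2 (0.906), OTX1 (0.905) and RAB4A (0.898), and CEBPB with ARRDC3 (0.922), SRP68 (0.899) and FOSL1 (0.877).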

How the data were processed

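QuantSeq 3′ mRNA libraries for Ion Torrent were sequenced on an Ion Proton from 12 samples, 3 biological replicates in each of 4 groups. The authors checked reads with FASTQC, aligned them to hg19 with Hisat2 and counted them with metaseqR2; the submitters' processing notes also name Bowtie2 and Trimmomatic, and versions are not given in the sources used here. The deposited values are raw counts per 3′ region, 144910 regions with identical coordinates in every library. These were summed by gene name over 57736 genes, of which 27326 had a count. Whether a read could be counted in 2 overlapping regions is not given in the sources used here.

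Comparisons were fitted on the whole table with edgeR 4.0.16 (R 4.3.3): TMM scaling, filterByExpr with a minimum count of 10, the quasi-likelihood test and Benjamini-Hochberg adjustment over all genes tested. HME was compared with control within each line (6 libraries), untreated HepG2 with untreated Ls174 (6 control libraries, shared with the HME comparisons), and the interaction was fitted over 12. A call is an adjusted p under 0.05; p under 0.05 with a log2 fold change beyond 0.58 is given beside it. Shares of all genes called are those of edgeR, and none is given for DESeq2. Standard errors are those of the log2 fold change. CPM are TMM-scaled, with no length term, and floors stand for 3 counts in a library and, like the binomial intervals, cover counting error only. The comparison of HNF4A ends used a two-sided exact permutation test. The fits were also run on simulated data with a single spread for all genes and no library standing apart. The outcome of that run is not given here and bears on no call above.

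The 8 genes and the lists of other genes were chosen with earlier results of these data known. The text names every one of the 8 and the 3 genes most like each factor. For HME within each line it names up to 4 genes of each list by lowest p among those called (then among those past p and fold). Between the untreated lines and for the interaction it names only part of the genes picked by that rule. CDX2, SOX9, ISX, GFI1, ALB and the C/EBP targets that did not pass were named after their values were seen. CXCL8 was matched by identifier, since the files use an older symbol, and AKR1B7 and PECAM1 were not analysed here. A gene in more than 1 list counts in each: NR0B2, CDX1, CDX2, ALB and the 8 hepatocyte markers that are also HNF4A and FOXA targets. Alternatives were DESeq2 1.42.0, other scalings and filters, a replicate block, 1 fit of all libraries, leaving out regions that overlap another gene, and leaving out each library in turn.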

Additional observations from a re-analysis of the deposited data

Results flagged for a closer look

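KLF5 and TRIB1 had an effect of HME that differed between the lines, by the interaction over all 12 libraries with an adjusted p under 0.05 in edgeR. For KLF5 the log2 fold change was higher in HepG2 than in Ls174 by 5.10 (SE 0.435, adjusted p = 0.000115), with all 3 HepG2 HME libraries above all 3 HepG2 controls. For TRIB1 the difference was 1.81 (SE 0.354, adjusted p = 0.0315), and its HepG2 values after HME were also all above the controls. The TRIB1 call was lost in 12 of 20 alternatives: with scaling by library size only (adjusted p = 0.0762), with the replicate block (0.171) and without each library except HepG2 control 2 and Ls174 control 1 (0.0623 to 0.131). KLF5 kept its call in all 19 of its alternatives. It could not be tested with the filter of at least 10 counts in every library, which its HepG2 controls did not reach. None of the 8 liver factors was flagged.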

How the results depend on the processing

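The replicate numbers did not pair the libraries: deviations of same-numbered libraries correlated at -0.150 to 0.0728 in HepG2 and -0.0595 to 0.00555 in Ls174, and at -0.376 to 0.110 between the controls of the lines. With the replicate block, the count of the 8 factors called was 1 for HME in HepG2, 0 in Ls174, 3 between the untreated lines and 0 for the interaction. In HepG2 the count of 1 became 2 by p and fold, with DESeq2, with no filter beyond 1 count and with 1 fit of all 12 libraries (CEBPA and CEBPB each time), and 0 without regions that overlap another gene, where CEBPA itself is left out. Leaving out single libraries gave 0 to 3 in HepG2, 0 to 2 in Ls174, 4 to 5 between the lines and 0 to 1 for the interaction. The interaction count of 0 was 1 (CEBPA) by p and fold, with no filter beyond 1 count and without the 2 control libraries that stand apart, an alternative chosen after seeing the data.

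Over the log2 fold changes of the 8 factors and the named genes, 962 of 1084 alternative values kept their direction and side of the threshold, 47 lost a call, 39 gained one and 36 changed sign. All sign changes were in values that were not called. FOXA2 in HepG2 was -0.10 with library size only and -0.0048 with the upper quartile, and FOXA3 was 0.26 under the block in HepG2 and -0.047 with library size only in Ls174. The interaction was 0.0039 (DESeq2) and 0.013 (block) for PROX1, and 0.17 (block) and 1.16 (without both controls that stand apart) for FOXA3. CEBPB between the lines was 0.71 without both controls. Leaving out single libraries in HepG2 gave -0.65 to 0.055 for HNF4A, -0.48 to 0.021 for PROX1, -0.0015 to 0.13 for FOXA2 and -0.41 to 1.02 for FOXA3. In Ls174 it gave -0.23 to 0.35 for FOXA3, -0.50 to 0.50 for CEBPA and -0.020 to 1.00 for CEBPB, and between the lines -0.60 to 0.57 for CEBPB. For the interaction it gave -0.43 to 0.30 for HNF4A, -0.32 to 0.24 for PROX1, -0.80 to 0.035 for FOXA1 and -0.45 to 0.93 for FOXA3. The HNF4A inner end difference in Ls174 ran from -0.70 to 1.16 points. The cause of these changes was not tested. Depth limits the low factors most: CEBPB had 13 to 42 counts in HepG2 controls.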
